A study of Mus musculus with 6 samples.

Results

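The genes described are 9 markers of striatal dopamine signalling, Drd1, Pdyn, Tac1, Drd2, Adora2a, Penk, Ppp1r1b, Rgs9 and Pde10a, which were taken by symbol from the 19465 genes of the deposited tables. Each symbol had a single row in all 6 tables. Coronal hemibrain sections of male C57BL/6J mice, formalin-fixed and paraffin-embedded and otherwise untreated, were profiled with Visium, which counts probe-captured RNA molecules (UMIs) in a grid of spots. There were 2 sections each at P21, in adults of 12 to 15 weeks and in aged mice of 28 months, which the methods describe as biological replicates. The younger ages were mounted on Visium v1 slides without transfer, and the aged tissue was moved to Visium v2 slides by CytAssist, so that in aged vs. adult the age cannot be told apart from the slide version.

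Medium spiny neurons, the main neurons of the striatum (STR), form a direct and an indirect output pathway. Direct pathway neurons carry the dopamine receptor D1 (Drd1) and make the peptides dynorphin (Pdyn) and substance P (Tac1). Indirect pathway neurons carry the dopamine receptor D2 (Drd2) and the adenosine receptor encoded by Adora2a and make enkephalin (Penk). Dopamine raises cAMP through D1 and lowers it through D2. Both pathways use DARPP-32 (Ppp1r1b), a phosphatase inhibitor that is switched by cAMP signalling, RGS9 (Rgs9), which shortens G protein signals, and the phosphodiesterase PDE10A (Pde10a), which breaks down cyclic nucleotides.

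Positions are those of GENCODE on GRCm38, the build of the files. Drd1 is at chr13:54051183-54055705 on the minus strand, Pdyn at chr2:129686565-129699844 on the minus strand and Tac1 at chr6:7554879-7565834 on the plus strand. Drd2 is at chr9:49340627-49408177 and Adora2a at chr10:75316877-75334784, both on the plus strand, and Penk is at chr4:4133531-4138819 on the minus strand. Ppp1r1b at chr11:98348404-98357796 on the plus strand and Rgs9 at chr11:109225355-109298129 on the minus strand share a chromosome. Pde10a is at chr17:8525372-8986648 on the plus strand. The RefSeq promoter table of GRCm38.p6 matched 6 of the 9 genes. Promoters are printed for the receptor and peptide genes it holds, because the results turn on these genes. The first listed start was taken where there were several. Each runs 5′ to 3′ from 250 bases before to 50 after a transcript start, with capitals for the GC box letters GGGCGG and the CRE half-site letters TGACG, both searched on both strands.
Drd1: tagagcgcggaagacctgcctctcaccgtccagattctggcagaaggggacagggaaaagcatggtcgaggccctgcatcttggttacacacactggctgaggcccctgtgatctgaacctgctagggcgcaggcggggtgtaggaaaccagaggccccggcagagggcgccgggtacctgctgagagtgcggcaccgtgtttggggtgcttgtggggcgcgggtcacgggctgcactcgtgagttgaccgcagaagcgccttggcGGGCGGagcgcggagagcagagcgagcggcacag
Drd2: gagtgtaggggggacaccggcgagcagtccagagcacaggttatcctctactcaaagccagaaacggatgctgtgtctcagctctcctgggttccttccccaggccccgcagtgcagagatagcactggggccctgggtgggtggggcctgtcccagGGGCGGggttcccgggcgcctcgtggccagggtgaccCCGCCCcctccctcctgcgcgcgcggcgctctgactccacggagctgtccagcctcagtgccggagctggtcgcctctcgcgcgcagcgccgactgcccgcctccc
Pdyn: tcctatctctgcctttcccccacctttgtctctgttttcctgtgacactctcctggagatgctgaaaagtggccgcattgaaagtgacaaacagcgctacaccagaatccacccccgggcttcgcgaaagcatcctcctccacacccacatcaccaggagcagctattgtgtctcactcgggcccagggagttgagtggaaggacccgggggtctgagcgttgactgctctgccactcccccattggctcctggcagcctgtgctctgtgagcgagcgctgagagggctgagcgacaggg
Tac1: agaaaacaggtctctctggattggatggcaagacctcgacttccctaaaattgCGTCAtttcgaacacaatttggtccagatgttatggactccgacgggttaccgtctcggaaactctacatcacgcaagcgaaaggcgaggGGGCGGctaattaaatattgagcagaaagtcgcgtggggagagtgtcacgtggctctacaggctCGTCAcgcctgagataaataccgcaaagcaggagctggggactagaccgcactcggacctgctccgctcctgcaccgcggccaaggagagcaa
These windows are chr13:54055609-54055908 on the minus strand for Drd1, chr9:49340153-49340452 on the plus strand for Drd2, chr2:129699889-129700188 on the minus strand for Pdyn and chr6:7554811-7555110 on the plus strand for Tac1. Tac1 was the only gene of these 4 with the CRE half-site letters, at 2 places, and 20.8% of all 32851 promoters in the table hold them. The GC box letters were found once in Drd1, at 2 places in Drd2, once in Tac1 and not in Pdyn, and 35.7% of all promoters hold them.

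Striatal spots were found by clustering that left out the 9 genes and the related pathway genes, and 1134 of 20336 spots fell in the cluster named STR. All 8 striatal marker genes fixed for naming were raised in it. The STR held 184 and 147 spots at P21, with 172 and 153 spots in adults and 236 and 242 spots in aged mice. The summed striatal depth was 1591212 to 6281480 UMIs a section, with the lowest in P21 replicate 2. Sections of the Visium array reuse spot barcodes, and P21 replicates 1 and 2 shared 2791 of them, so spots were identified by section and barcode together.

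Every gene was highest in the STR among the 7 named regions in 6 of 6 sections. Besides the STR, these were the fiber tracts (FT), ventricular system (VS), cortex (CTX), thalamus (TH), hypothalamus (HY) and hippocampus (HP). Levels are CPM, the share of a gene among the UMIs of a section's summed spots, and they are compared between regions of the same gene only. Because the STR was itself defined by clustering these spots, the regional order is a description. The enkephalin gene Penk was at 8.94 to 12.98 times its next region in the same section. Adora2a was 6.62 to 16.99 times and Drd2 6.38 to 13.6 times its next region. The direct pathway peptide genes were less restricted. Tac1 was 2.19 to 3.17 times its level in the HY, which was its next region in every section, and Pdyn was 2.54 to 4.98 times its next region. Ppp1r1b was 1.92 to 2.94 times its level in the VS. The VS holds few spots, and the levels of rare genes there rest on few UMIs.

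**Figure D1:**
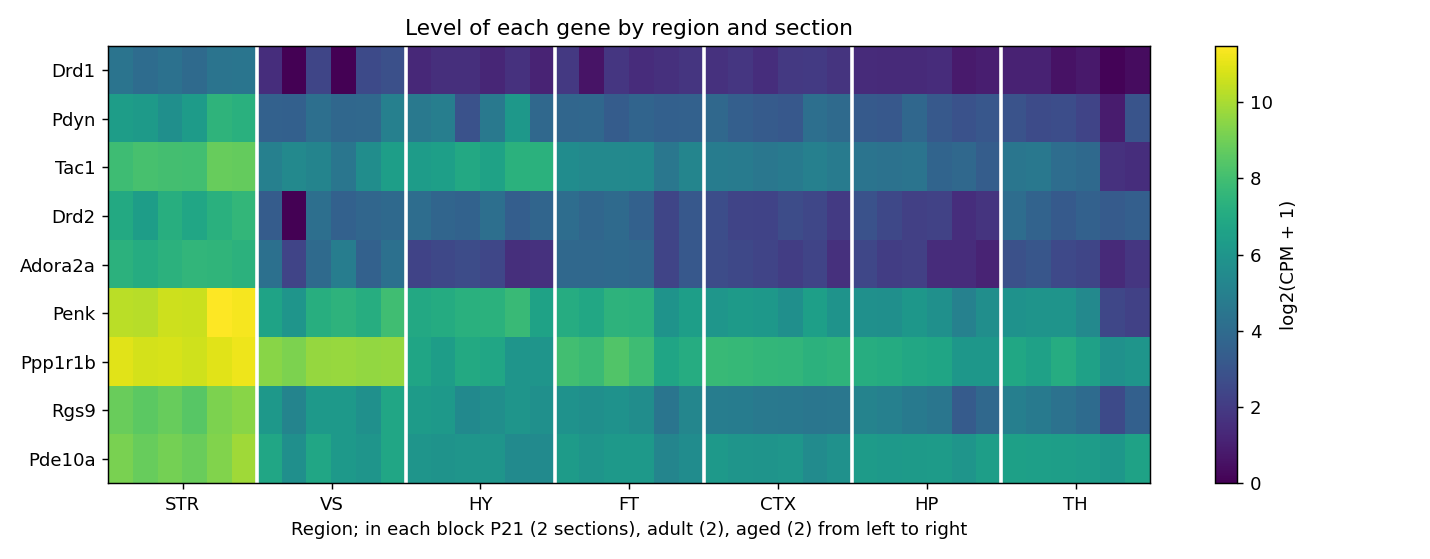
Level of the 9 genes on the log2(CPM + 1) scale (colour) in 7 regions, with the 6 sections of each region side by side from P21 to aged. Every gene is brightest in the STR block, and Penk and Tac1 are dark in the 2 aged TH columns.

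Drd1, the receptor of the direct pathway, was the gene with the fewest striatal UMIs. Its striatal level was 20.1 and 15.8 CPM at P21, against 18.6 and 14.6 CPM in adults and 20.7 and 21.1 CPM at the oldest age. The P21 and adult values overlapped, and both aged values were above both adult values. These levels rest on 25 to 134 UMIs a section, and 13.6% to 37.6% of striatal spots held a Drd1 UMI. The log2 difference from adult was 0.15 ± 0.22 (SE) at P21 and 0.32 ± 0.20 at the aged stage, and neither was called in the edgeR quasi-likelihood test (a call needed an adjusted p under 0.05 and a change over 1.5 times; adjusted p = 0.753 and 0.224).

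The peptide genes of the direct pathway were higher in aged sections. Pdyn was at 82.9 and 75.1 CPM at P21, 51.1 and 78.3 CPM in adults and 174 and 155 CPM in aged sections. The aged values lay above the other 4, while the 2 adult values differed by more than the P21 values did. Pdyn was 2.57 times higher in aged vs. adult (log2 1.36 ± 0.14, edgeR adjusted p = 8.5e-07). Tac1 was at 241 and 281 CPM at P21, 267 and 255 CPM in adults and 450 and 436 CPM in aged sections. P21 and adult values of Tac1 overlapped, and aged vs. adult gave a fold change of 1.70 (log2 0.77 ± 0.09, edgeR adjusted p = 5.88e-06). In summed striatal spots, more neurons of a type and more RNA per neuron cannot be told apart.

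Among indirect pathway genes, the peptide gene rose and the receptor genes were not called. Penk was at 1244 and 1199 CPM at P21, 1564 and 1523 CPM in adults and 2852 and 2555 CPM in aged sections. The 3 ages did not overlap. Penk was 1.76 times higher in aged vs. adult (log2 0.81 ± 0.08, edgeR adjusted p = 9.26e-07). Its log2 difference at P21 was −0.33 ± 0.08 with an adjusted p of 0.0184 in edgeR, below the minimum change of 1.5 times. Drd2 was at 124 and 83.3 CPM at P21, 144 and 110 CPM in adults and 155 and 191 CPM in aged sections. P21 and adult values of Drd2 overlapped, and its aged vs. adult log2 difference of 0.45 ± 0.14 (edgeR adjusted p = 0.0215) was also under the minimum change. Adora2a was at 164 and 139 CPM at P21, 167 and 188 CPM in adults and 183 and 166 CPM in aged sections. The aged and adult values of Adora2a overlapped, with a log2 difference of −0.02 ± 0.10 (edgeR adjusted p = 0.912).

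Of the genes used by both pathways, 2 of 3 were called higher in aged sections. Rgs9 was at 456 and 378 CPM at P21, 441 and 356 CPM in adults and 590 and 687 CPM in aged sections. The aged values of Rgs9 lay above the other 4, at 1.61 times the adult level (log2 0.68 ± 0.11, edgeR adjusted p = 0.000124). Pde10a was at 570 and 443 CPM at P21, 538 and 463 CPM in adults and 640 and 917 CPM in aged sections. Its aged sections differed by more than those of any other age, and the fold change was 1.56 (log2 0.64 ± 0.14, edgeR adjusted p = 0.00139). Ppp1r1b was at 1989 and 1716 CPM at P21, 1760 and 1609 CPM in adults and 1969 and 2312 CPM in aged sections. Its aged vs. adult log2 difference was 0.35 ± 0.10 (edgeR adjusted p = 0.00895), under the minimum change.

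**Figure D2:**
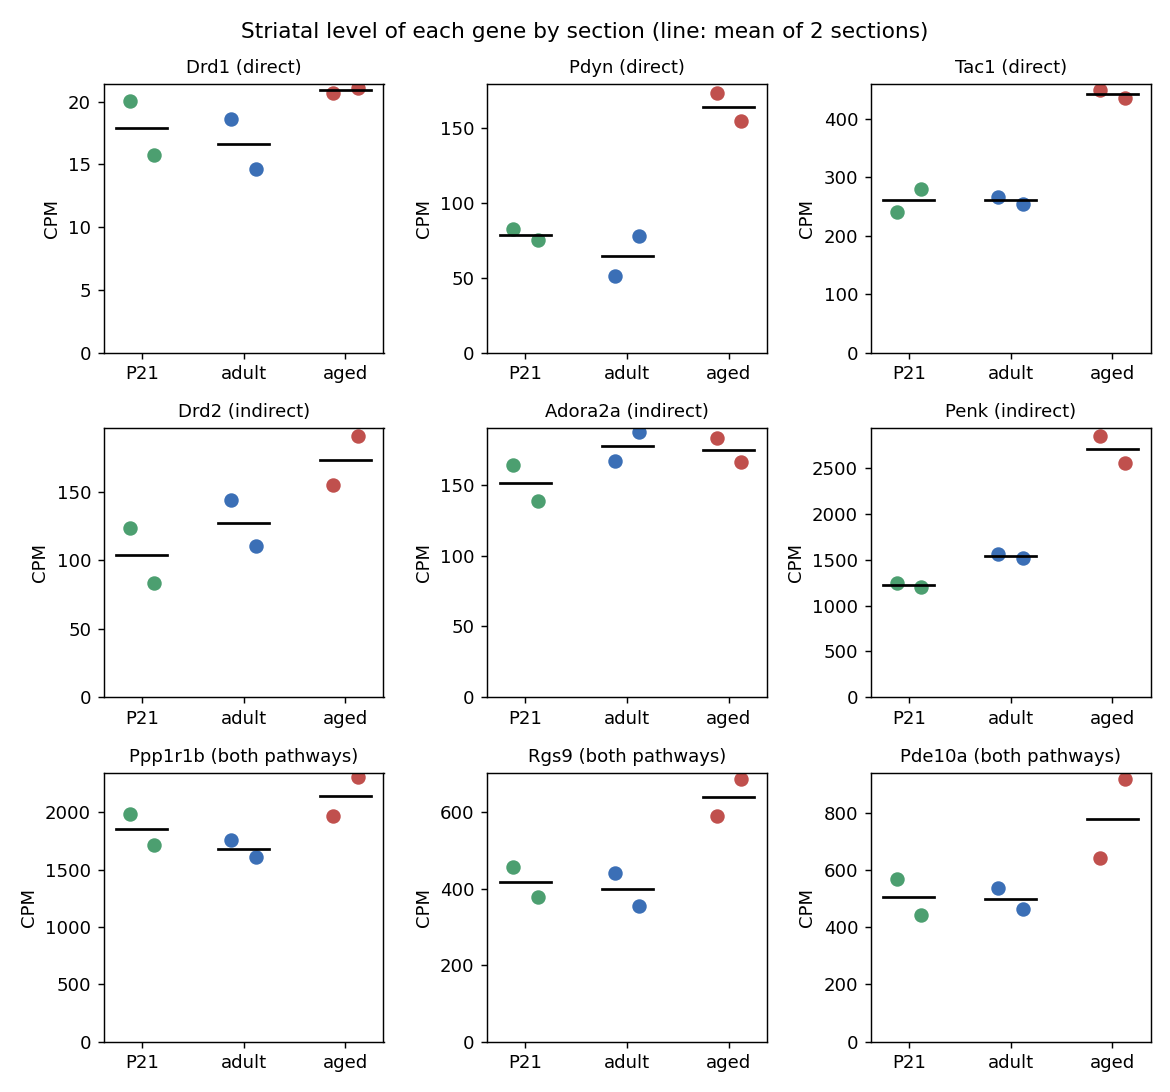
Striatal CPM of each gene (vertical axis, from 0) in the 2 sections of each age (points) with their mean (line). The 2 aged sections lie above the 4 other sections for Pdyn, Tac1, Penk, Rgs9 and Pde10a. They also do for Drd2 and, narrowly, for Drd1, which were not called. The ages overlap for Adora2a and Ppp1r1b.

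In the STR, 0 of 9 genes were called in P21 vs. adult, where 4.3% of the 11136 genes tested were called by edgeR and of the 9 only Penk had an unadjusted p under 0.05, as did 21.8% of all genes. DESeq2 also called 0 of 9, where it called 268 of 11136 genes. Leaving out adult replicate 2 added Pdyn to the calls (log2 0.65, edgeR adjusted p = 0.0318). In aged vs. adult, 5 of 9 genes were called higher and 0 lower, against 8.85% of 11583 genes called higher. The median log2 difference was 0.64 over the 9 genes and 0.01 over all genes tested. As a sum, the 8 striatal marker genes used for naming, which are not among the 9, were also higher in aged sections. In the STR they summed to 731 and 568 CPM in adults and to 953 and 1313 CPM in aged sections. The part of this in the changes of the 9 genes was not tested. Without adult replicate 2, or without aged replicate 2, Rgs9 and Pde10a fell under the minimum change. Pde10a was also not called by DESeq2 (adjusted p = 0.0812).

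The change in the STR was next compared with the change in the rest of the same section, with the section as a block. A call of this term needed an adjusted p under 0.05 and no minimum change. In aged vs. adult, 8 of 9 genes were called with a more positive change in the STR, against 4.98% of 11584 genes. The difference was largest for Adora2a (log2 1.04 ± 0.14, edgeR adjusted p = 1.48e-05) and Drd2 (0.99 ± 0.15, edgeR adjusted p = 3.35e-05). Neither was called within the STR, where the log2 change was −0.02 for Adora2a and 0.45 for Drd2. The term compares 2 changes, so a fall in the other spots raises it as much as a rise in the STR. Drd1 differed by 0.23 ± 0.27 (edgeR adjusted p = 0.704). With the CTX in place of all other spots, 6 genes were called, where 985 of 11584 genes were called in either direction. Pdyn (log2 0.41, edgeR adjusted p = 0.173) and Adora2a (log2 0.29, edgeR adjusted p = 0.565) were then not called. Tac1 was not called without adult replicate 1 (log2 0.35, edgeR adjusted p = 0.0522) or aged replicate 1 (log2 0.21, edgeR adjusted p = 0.137). For P21, Rgs9 alone was called, with a difference of −0.40 ± 0.09 (edgeR adjusted p = 0.0319), where 0.377% of 11136 genes were called. That call was lost without P21 replicate 1, P21 replicate 2 or adult replicate 1 (log2 −0.50, −0.33 and −0.29). With each section clustered alone, Rgs9 was at −0.09 (edgeR adjusted p = 0.741) and the call was Ppp1r1b in its place (log2 0.59, edgeR adjusted p = 0.000349).

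**Figure D3:**
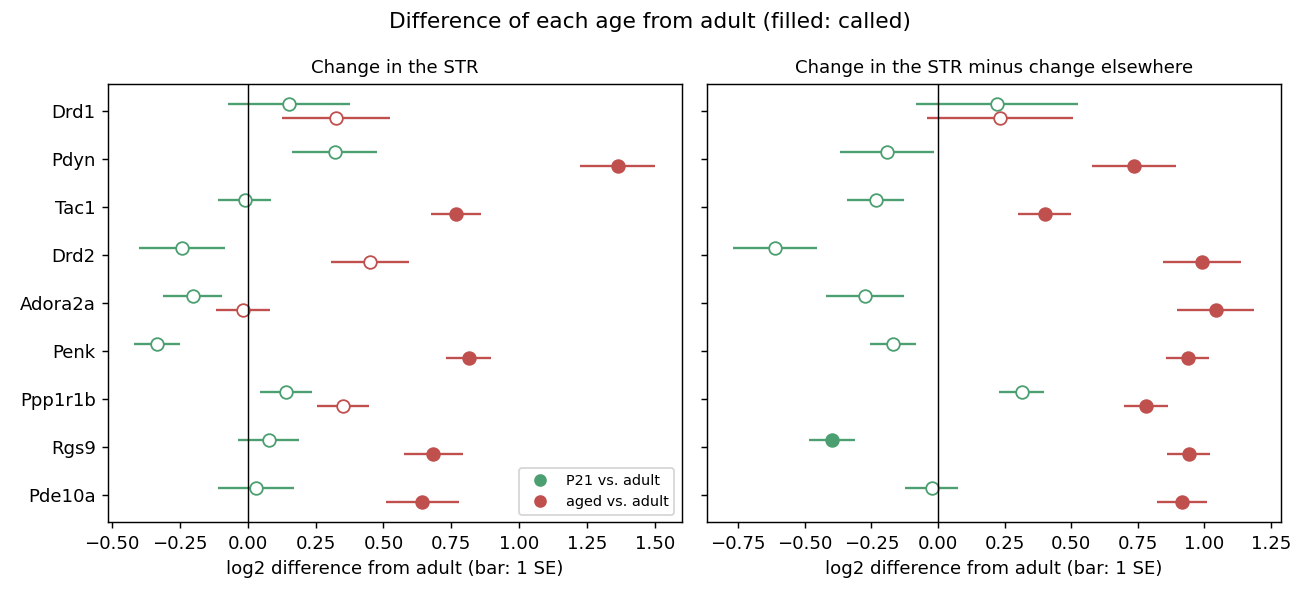
Log2 difference of P21 and aged from adult (horizontal axis, bars of 1 SE) for each gene in the STR (left) and for the STR minus the rest of the section (right), with filled points for called genes. On the right, where a call needed the adjusted p alone, 8 of 9 aged points are filled, and the Drd1 points have the widest bars.

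Outside the STR, most calls in aged vs. adult were lower. In the FT, Drd2, Adora2a, Penk, Ppp1r1b, Rgs9 and Pde10a were called lower, 6 of 8 genes tested, where 12.9% of all genes were called lower. With a section left out, the FT difference ran from −1.24 to −0.43 for Rgs9 and from −0.92 to −0.54 for Pde10a. At the smaller end both were under the minimum change. The smallest fall among the other FT calls was −0.63, for Drd2. In the TH, 4 of 6 genes tested were called lower against 6.85% of all genes. Thalamic Penk was at 57.6 and 59.6 CPM at P21, 60.0 and 41.4 CPM in adults and 4.37 and 3.65 CPM in aged sections. Both aged values were far below the other 4, with a log2 difference of −3.60 ± 0.20 (edgeR adjusted p = 1.43e-06). Thalamic Tac1 was at 21.5 and 22.9 CPM at P21, 16.05 and 14.4 CPM in adults and 2.07 and 1.83 CPM in aged sections (log2 −2.91 ± 0.18, edgeR adjusted p = 3.21e-06). The other thalamic calls were Ppp1r1b (−0.90) and Rgs9 (−1.09), and Rgs9 was not called without adult replicate 1. In the HP, Ppp1r1b and Rgs9 were called lower, 2 of 6 tested against 5.85%. In the HY, Ppp1r1b was called lower, 1 of 7 tested against 5.28%. The only rise called was Pdyn in the CTX, 1 of 6 tested against 7.24%, at 8.93 and 7.83 CPM in adults and 17.6 and 14.5 CPM in aged sections (log2 0.95 ± 0.16, edgeR adjusted p = 0.000349). Tac1 was higher but under the minimum change in the HY (log2 0.57 ± 0.12, edgeR adjusted p = 0.0103) and the CTX (log2 0.33 ± 0.11, edgeR adjusted p = 0.0288).

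In P21 vs. adult, Rgs9 in the HY was the sole call outside the STR, 1 of 7 tested against 2.54% called higher. It was at 78.3 and 72.9 CPM at P21 and 42.1 and 50.0 CPM in adults (log2 0.70 ± 0.12, edgeR adjusted p = 0.0128), and the call was lost without P21 replicate 1, P21 replicate 2 or adult replicate 1. No gene was called in the CTX, HP, TH or FT, where 5.84%, 7.36%, 7.68% and 9.38% of all genes were called by edgeR. At an unadjusted p under 0.05 were 2 of 7 genes tested in the CTX, 3 of 7 in the HP, 4 of 8 in the TH and 1 of 8 in the FT, against 33.7%, 29.2%, 33.1% and 36.4% of all genes, and DESeq2 called Rgs9 in the TH. Among these, hippocampal Drd2 (log2 0.68) and thalamic Adora2a (log2 0.57) passed the detection filter through P21 alone. Their higher P21 level was thus part of why they were tested.

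Genes of other regions, measured away from their own region, differed in aged sections in some panels and overlapped in others. The 5 marker genes of cortical pyramidal neurons summed to 1344 to 1518 CPM in the STR of P21 and adult sections and to 255 and 403 CPM in aged sections. All 5 were called lower in the STR in aged vs. adult, with Slc17a7, the vesicular glutamate transporter of these cells, at −2.34 ± 0.15. The thalamic marker panel in the STR summed to 318 to 421 CPM in P21 and adult sections and to 211 and 239 CPM in aged sections. The hippocampal panel in the STR summed to 130 to 148 CPM in P21 and adult sections and to 160 and 172 CPM in aged sections. As a percentage of its hippocampal level it was at 13.2% to 18.3%, against 17.3% and 15.7% in aged sections, which overlapped. By the same measure the cortical panel in the STR was at 39.4% to 46.2%, against 22.6% and 26.3% in aged sections. The thalamic panel was at 7.64% to 13.2%, against 3.97% and 4.40%. The HY, FT and VS panels in the STR overlapped between these groups by this measure. The cortical panel in the TH was at 28.0% to 35.6% of its cortical level in P21 and adult sections. In aged sections it was at 40.0% and 35.0%. The HY panel in the TH was at 12.1% to 19.7% of its HY level, against 5.87% and 8.80% in aged sections. The FT panel in the TH was at 29.9% to 35.9% of its FT level, against 18.7% and 20.1% in aged sections. The VS panel in the TH was at 0.601% to 0.970% of its VS level, against 0.0501% and 0.0333% in aged sections. The striatal and hippocampal panels in the TH overlapped between these groups. At 1 spot spacing from the nearest striatal spot, Penk was at 167 to 291 CPM in P21 and adult sections and at 688 and 480 CPM in aged sections. At 5 to 6 spacings it was at 111 to 126 CPM in P21 and adult sections and at 106 and 48.2 CPM in aged sections, and at 13 to 16 spacings the aged values of 122 and 85.6 CPM stood against 71.3 to 96.6 CPM in the others. The part of these differences in the changes with age was not tested, and it cannot be told apart from age because slide version and age coincide.

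**Figure D4:**
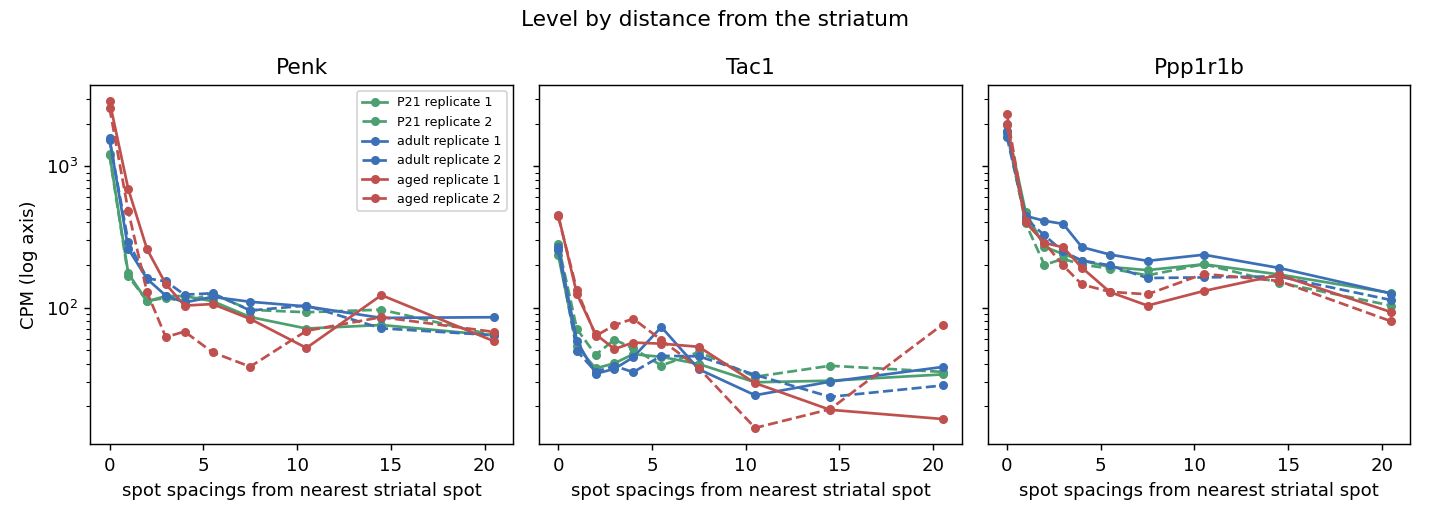
CPM of Penk, Tac1 and Ppp1r1b (log axis) against the distance from the nearest striatal spot in spot spacings, with striatal spots at 0 and 1 line per section. At 1 spacing both aged Penk lines lie above the others, and at 3 spacings aged replicate 2 is the lowest at 61.8 CPM while aged replicate 1 is among the others at 147 CPM.

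Clustering the striatal spots again gave 6 subclusters, and the 9 genes differed strongly among them. The subcluster led by Hpca and Scn4b, here called the core, held 341 spots in all sections. The highest striatal levels of the indirect pathway genes were in the core, with Drd2 at 147 to 314 CPM, Adora2a at 236 to 342 CPM and Penk at 1911 to 4521 CPM. A medial subcluster led by Lhx8 and Slc18a3, the vesicular acetylcholine transporter, held 141 spots. There Tac1 was at 392 to 986 CPM and Drd1 at 22.6 to 39.4 CPM, while Drd2 was at 38.2 to 112 CPM and Adora2a at 49.6 to 98.0 CPM. In every section Tac1 was higher in the medial subcluster than in the core, and Drd2 was lower. Drd1 was lower than in the core in both P21 sections (23.4 and 22.6 against 25.5 and 28.0 CPM) and higher in adult and aged sections. These Drd1 levels rest on few UMIs, since all striatal spots of P21 replicate 2 held 25.

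A ventral subcluster led by Ncdn and Tac2 held 135 spots and was unlike the rest. Pdyn was at 168 and 176 CPM at P21, 90.0 and 197 CPM in adults and 364 and 381 CPM in aged sections, higher than in the core of the same section in all 6. The other direct pathway genes were low there, with Tac1 at 16.7 to 36.6 CPM and 0 to 2 Drd1 UMIs a section. Drd2 was at 10.0 to 29.8 CPM and Adora2a at 9.45 to 26.7 CPM. The 8 striatal marker genes summed to 151 to 330 CPM in these spots against 796 to 2090 CPM in the core. The 5 marker genes of the central amygdala summed to 1374 to 2414 CPM against 384 to 481 CPM in the core. Their sum is not particular to these spots, since it was 1287 to 2339 CPM in the TH. Prkcd, a gene of this list, also belongs to the thalamic panel, so the thalamic sum does not describe each gene. The HY marker panel summed to 1080 to 1674 CPM in these spots against 181 to 262 CPM in the core. The leading genes and panels of the ventral subcluster went against the striatal name, and its spots were given no other name.

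**Figure D5:**
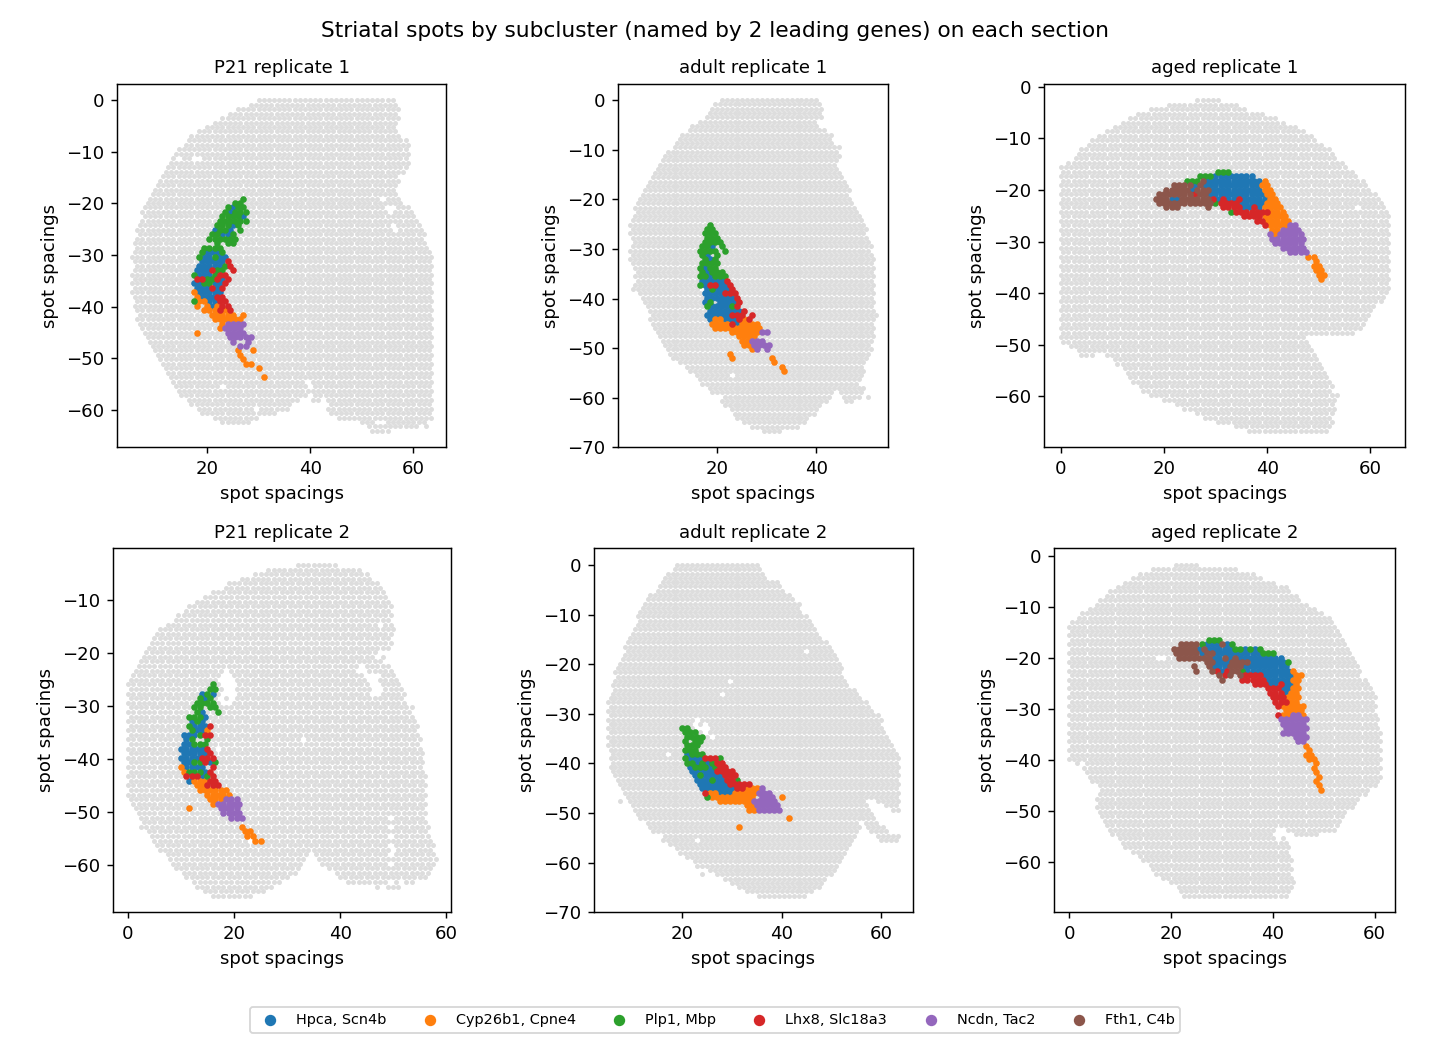
Position of the striatal spots in each section, in spot spacings on both axes, coloured by subcluster and named by 2 leading genes, with all other spots in grey. The subcluster led by Ncdn and Tac2 lies at the ventral end in every section, and the subcluster led by Fth1 and C4b occurs in the 2 aged sections.

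In the core alone, the same 5 genes were called higher in aged vs. adult, where 12.6% of 10441 genes were called in either direction. The log2 differences there were 1.38 ± 0.17 for Pdyn, 0.78 ± 0.12 for Tac1, 0.69 ± 0.10 for Penk, 0.65 ± 0.12 for Rgs9 and 0.65 ± 0.14 for Pde10a. The 8 striatal marker genes in the core summed to 1024 and 796 CPM in adults and to 1365 and 2090 CPM in aged sections. Cortical pyramidal marker genes in the core summed to 1248 to 1477 CPM in P21 and adult sections and to 168 and 337 CPM in aged sections. The core held 0 of 9 called genes in P21 vs. adult by edgeR, where 168 of all 10416 genes tested were called. Penk and Ppp1r1b had an unadjusted p under 0.05, as did 1373 of the 10416 genes.

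A direct minus indirect index was formed as the mean log2(CPM + 1) of Drd1, Pdyn and Tac1 minus that of Drd2, Adora2a and Penk. It was −1.97 and −1.77 at P21, against −2.37 and −2.22 for adult and −1.86 and −1.92 for aged sections. The adult sections were the lowest, and P21 and aged sections overlapped. The mean was 0.43 above adult at P21 and 0.40 above adult in aged sections, a score over chosen genes that carries no test. Single pairs of a direct and an indirect pathway gene did not all follow it. Of 9 pairs, 5 were above adult in both aged sections, among them all those with Pdyn. Drd1 minus Penk was below adult in both aged sections, with a mean difference of −0.48. For the receptors alone, Drd1 minus Drd2 was −2.88 and −2.83 in adults and −2.85 and −3.12 in aged sections. At P21 it was −2.56 and −2.33, above both adult values.

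Other genes of the pathway were described by fixed lists. Of 6 other direct pathway genes, 3 were called higher in the STR in aged vs. adult, against 8.85% of all genes. They were Chrm4 (log2 1.05 ± 0.18), which encodes the M4 muscarinic receptor, and the transcription factors Isl1 (0.68 ± 0.20) and Ebf1 (0.66 ± 0.19). Of 5 other indirect pathway genes, 3 were also called higher, against the same 8.85%. They were the orphan receptors Gpr6 (1.33 ± 0.19) and Gpr52 (0.70 ± 0.14) and the transcription factor Sp9 (0.80 ± 0.19). None of either list was called in P21 vs. adult by edgeR, where 6 direct and 4 indirect pathway genes were tested. At an unadjusted p under 0.05 these were 0 and 1 genes, the latter Gpr52.

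The 26 genes of receptor coupling and cAMP signalling moved both ways in aged vs. adult, with 5 called higher and 3 lower, where 8.85% of all genes were called higher and 6.25% lower. The largest changes were in the phosphodiesterase genes Pde7b (1.44 ± 0.21) and Pde1b (−1.23 ± 0.13), in Gng7 (1.16 ± 0.12), a subunit of the striatal G protein, and in Chrm1 (1.09 ± 0.12), which encodes the M1 muscarinic receptor. Gnal (0.37 ± 0.09), Adcy5 (0.48 ± 0.09) and Rgs7bp (0.28 ± 0.12), which encode the G protein, the adenylyl cyclase and an anchor of RGS9, were not called. At P21, 1 of 26 was called, Pde7b at 0.90 ± 0.25, against 4.3% of all genes. Among 6 opioid and tachykinin receptor genes, 5 were tested in aged vs. adult and 2 were called higher, against 8.85% of all genes. They were Tacr1 (1.41 ± 0.41), the receptor of substance P, and Oprd1 (0.70 ± 0.20), a receptor of enkephalin. In P21 vs. adult 4 were tested and 0 were called by edgeR, against 4.3% of all genes. At an unadjusted p under 0.05 were 0 of these 4.

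Of 11 genes of dopamine synthesis, transport and breakdown, 9 were tested in aged vs. adult and 0 were called by edgeR, where 8.85% of all genes were called higher and 6.25% lower. Of the 9, 4 had an unadjusted p under 0.05, as did 41.5% of all genes. Th, the rate-limiting enzyme of dopamine synthesis, was at 2.52 to 7.72 CPM in the STR, where dopamine axons but few dopamine cell bodies lie. At P21, Qdpr, which regenerates the cofactor of Th, was called lower (−1.14 ± 0.11). The other dopamine receptor genes were too low to test, with Drd3 at 1.26 to 5.68 CPM, Drd4 at 0 to 1.58 CPM and Drd5 at 0 to 3.78 CPM.

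Marker lists of other cells moved with age in the same spots. All 6 oligodendrocyte genes were called higher at P21, and the list summed to 16239 and 18662 CPM at P21, 7433 and 8797 CPM in adults and 7044 and 7896 CPM in aged sections. Immediate early genes summed to 372 and 535 CPM in adults and 1062 and 1289 CPM in aged sections, with Egr1 at 2.11 ± 0.14. Of 5 neuronal genes, Gad1 (1.19 ± 0.10) and Gad2 (0.93 ± 0.08), which make the transmitter GABA used by medium spiny neurons, were called higher in aged sections. These 2 are not markers of all neurons. Of the other genes of the list, Syt1 (0.73 ± 0.11) was called higher, Snap25 (−0.63 ± 0.09) was called lower and Rbfox3 (−0.06 ± 0.09) was not called. This list summed to 3901 and 4271 CPM in adults and 3734 and 3962 CPM in aged sections. Among 5 striatal interneuron genes, the cholinergic genes Chat (1.59 ± 0.37) and Slc5a7 (1.67 ± 0.41) were called higher and Pvalb (−1.01 ± 0.24) lower. Gfap (1.96 ± 0.11) was the 1 of 5 astrocyte genes called, Trem2 (1.04 ± 0.20) the 1 of 5 microglia genes, both higher, and Opalin (−2.22 ± 0.17) the 1 of 6 oligodendrocyte genes, lower. Of 5 globus pallidus genes, 2 were tested, with Lhx6 (0.91 ± 0.24) called higher and Pvalb, named above, called lower. The 5 central amygdala genes summed to 466 and 683 CPM in adults and 753 and 633 CPM in aged sections, with Nts (0.64 ± 0.22) called higher. The part of these cells in the changes of the 9 genes was not tested.

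Genes with the most similar pattern were ranked by Pearson r of log2(CPM + 1) over 42 sums of section and region, which share libraries within a section. For Drd1 they were Impg1 (0.90), Il20ra (0.88) and Gpr6 (0.87). For Drd2 they were Adcy5 (0.94), Syndig1l (0.91) and Gpr52 (0.89). The sums span regions, so r includes the difference between the STR and other regions. Syndig1l is among the marker genes that named the STR, so its match was partly set in advance. Gpr6, ranked for Drd1, is on the list of indirect pathway genes. The deposited Moran's I, a score of spatial clustering over a whole section, was lowest for Drd1 among the 9 genes in each section, at 0.0467 to 0.1999. It was 0.384 to 0.763 for Penk and 0.473 to 0.667 for Ppp1r1b.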

How the data were processed

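The authors deposited unnormalized UMI counts for each spot, made with Space Ranger on mm10. Per the file headers it was version 3.1.1 for the aged sections and 2.0.0 for the others, while the submitters' processing notes name 2.1.0. The deposited Moran's I score was used as given. Spots with under 250 genes or 500 UMIs were removed. Regions were rebuilt by Leiden clustering (resolution 0.3, 10 principal components, 3000 variable genes) without 66 genes of the described pathway, and named from fixed marker panels. UMIs were summed by section and region. edgeR 4.0.16 (TMM, quasi-likelihood) compared ages over 6 sums, for genes kept by filterByExpr and seen in more than 10% of a region's spots at one of the ages compared. A call needed a p under 0.05 after Benjamini-Hochberg adjustment over all genes tested and a change over 1.5 times, or the adjusted p alone for the difference between the STR and other spots. SE is the log2 change divided by the square root of F. CPM are TMM-scaled. The tests were tested on simulated data. DESeq2 1.42.0, other filters, spot sets and left-out sections were alternatives. The members and lists were chosen with earlier results of these data known. All members were named, and of each list up to 4 called genes with the largest change, plus Drd3, Drd4, Drd5, Gnal, Adcy5, Rgs7bp and Th.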

Additional observations from a re-analysis of the deposited data

Results flagged for a closer look

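The change with age in the STR differed from that in the rest of the section, by the edgeR term for this difference, for 9 results. In aged vs. adult the log2 differences were 0.99 for Drd2, 1.04 for Adora2a, 0.94 for Penk, 0.73 for Pdyn, 0.40 for Tac1, 0.78 for Ppp1r1b, 0.94 for Rgs9 and 0.92 for Pde10a. In P21 vs. adult it was -0.40 for Rgs9. Over all genes, 4.98% of 11584 were called with a more positive change in the STR in aged vs. adult. In P21 vs. adult, 0.377% of 11136 were called in either direction.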

How the results depend on the processing

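In the STR, calls in aged vs. adult numbered 5, with 3 to 6 when a section was left out and 8 when each section was clustered alone, which added Drd1 (0.67), Drd2 (0.76) and Ppp1r1b (0.63). In P21 vs. adult there were 0, where 479 of 11136 genes were called, and 1 with no fold minimum. With a section left out, the Pdyn difference there ran from 0.028 to 0.65. Against the rest of the section, P21 vs. adult gave 1 call, where 42 of 11136 genes were called. There were 3 by library size only, where 74 of 11136 were called. Interior spots (all neighbours striatal) gave 0, where 22 of 11222 were called, and the CTX as comparison gave 0, where 24 of 11136 were. With a section left out, this difference ran from −0.50 to −0.29 for Rgs9 in P21 vs. adult. It ran from 0.21 to 0.60 for Tac1 in aged vs. adult. The P21 call was Ppp1r1b in place of Rgs9 with each section clustered alone, where 278 of 11163 genes were called. It was also Ppp1r1b in the core, an alternative chosen after seeing the data (0.45, edgeR adjusted p = 0.0028, against −0.38, 0.165, for Rgs9). In the core 54 of 11103 genes were called. Outside the STR, P21 vs. adult gave 1 call over 37 tests and 2 by DESeq2. Over all genes, edgeR called from 509 of 11368 in the HY to 1075 of 11460 in the FT. Aged vs. adult gave 14 calls over 33 tests. There edgeR called from 1356 of 11390 genes in the HY to 2937 of 11582 in the FT. With a section left out, the Rgs9 difference in the HY in P21 vs. adult ran from 0.576 to 0.827. The genes called were not the same throughout. In the FT, Rgs9 (−0.43) and Pde10a (−0.54) fell under the minimum change in aged vs. adult with a section left out. The aged minus adult index of 0.40 was 0.51 in interior spots, 0.53 in the core and −0.13 for Drd1 against Drd2. The cause of these shifts was not tested.

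Signs turned only where no call stood. In the STR, P21 vs. adult, clustering each section alone gave 0.12 for Drd2, 0.16 for Adora2a and 0.35 for Tac1, the core gave 0.13 for Tac1, and Pde10a was −0.0012 by library size only and −0.0062 in interior spots. With a section left out, the log2 difference there ran from −0.074 to 0.35 for Drd1, −0.12 to 0.12 for Tac1, −0.069 to 0.24 for Rgs9 and −0.16 to 0.18 for Pde10a. Adora2a in aged vs. adult was 0.25 with each section clustered alone and −0.11 to 0.067 with a section left out. For the difference from the rest of the section in P21 vs. adult, clustering alone gave 0.033 for Adora2a, 0.12 for Tac1 and 0.34 for Pde10a, and Ppp1r1b was −0.011 against the CTX. With a section left out it ran from −0.38 to 0.052 for Pdyn and −0.18 to 0.12 for Pde10a.

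Replicate numbers did not pair the sections (correlations of 0.07, −0.092 and −0.075). With the replicate number as a block, 5 and 0 genes were called in the STR in aged and P21 vs. adult, and 14 and 1 outside it. Over all genes, 1723 of 11583 and 466 of 11136 were then called in the STR. Drd1 was left untested when detection in 10% of all spots was also required. Depth limits Drd1 most, with 25 striatal UMIs in P21 replicate 2.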
